A study of Drosophila melanogaster with 6 samples.

Results

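Described are 5 chaperone genes of Drosophila melanogaster in material treated with methotrexate, an antifolate drug: the heat-inducible Hsp70 gene Hsp68, the cognate Hsp70 gene Hsc70-1, the J-domain co-chaperone gene Droj2, the endoplasmic reticulum Hsp90 gene Gp93 and the chaperonin subunit gene CCT1, listed in older annotation as T-cp1. They are 5 of 6764 genes tested on the arrays of S3 cells and 5 of 2377 on the arrays of ovaries, and all 5 are among the 1815 genes with values on both array designs. The members were chosen by their ovary log2 ratios: Hsp68, Hsc70-1, Droj2 and Gp93 passed the ovary gene test with arrays centred on their medians, and CCT1 passed it once print position had been centred. Their ovary values, and the value of Hsp68 in S3 cells, which had been seen as well, are therefore given as a description with no test. On the S3 design, 4 spotted cDNA arrays with 2 colours compared S3 cells, a cultured Drosophila cell line, given methotrexate at 5.2e-08 M for 4 days with untreated S3 cells. Another design, with 2 arrays, compared ovaries of flies given 5 ppm methotrexate for 5 days with ovaries of untreated flies. The strain, age and number of the flies, and whether each array had its own culture or batch of flies, are not given in the sources used here, so the spread between arrays may be technical.

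Chaperones bind unfolded or partly folded proteins and keep them from aggregating. Hsp70 proteins do so in cycles of ATP hydrolysis that J-domain proteins stimulate, Hsp90 proteins act later on near-native clients, and the ring-shaped chaperonin encloses its clients, actin and tubulin among them. The heat-inducible genes are switched on by the heat shock factor when unfolded proteins accumulate, whereas the cognate genes are transcribed without stress.

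Features of the arrays bear on every value below. The channel that formed the numerator of the deposited ratios is not stated, so ratios are called positive or negative with the deposited sign and carry no direction relative to methotrexate. In the labels, Cy3 marks RNA of treated S3 cells on every array but array 2, where Cy5 does. For ovaries Cy5 marks the treated side of both, although the series text speaks of a swap, so that dye and treatment cannot be told apart there. Means over the S3 arrays are therefore given with array 2 turned, as its dye order asks, and as deposited. As deposited, gene values of S3 array pairs correlated at r = -0.187 to 0.206 with array medians across 6764 genes. After print centring all 6 pairs correlated positively, the lowest at r = 0.0605. The ovary pair correlated at r = 0.753 across 2377 genes. Genes are not independent replicates in these values. Ratios also depended on where a spot was printed. Values are given with each array centred on its median and, for comparison, after print centring, which sets the median of each print block to 0. On the ovary design it first subtracts the median of each row number, taken over all blocks. A single row of a block can therefore keep an offset of its own. Log ratios hold no expression level, so the labelled cell line and tissue could not be checked against marker genes. On the ovary design 0 of 9 germ-line and 0 of 11 follicle-cell markers were measured. Of 3 hemocyte markers there 2 passed on the positive side under either centring. With array medians the other was negative, at -0.53. Of 2 muscle markers 1 passed on the negative side under either centring. Among all ovary genes 39.0% passed with array medians and 32.8% after print centring. The part of the marked cell types in the ovary results was not tested. In whole ovaries or cultures, fewer cells of a type and less RNA per cell cannot be told apart.

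**Figure D1:**
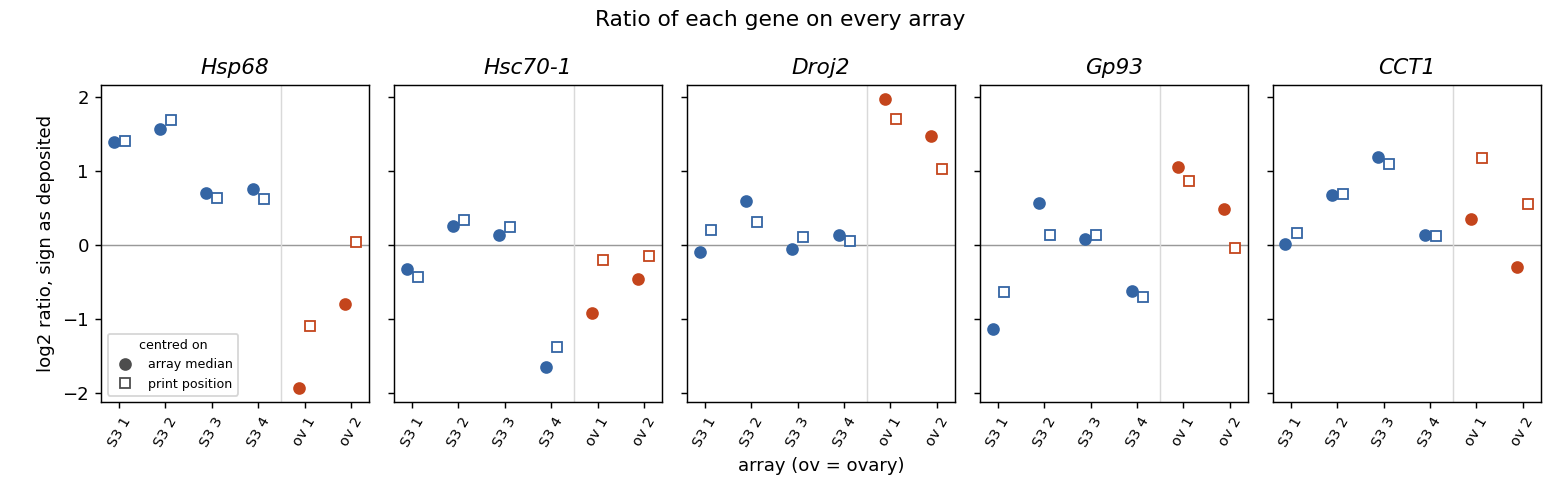
Log2 ratio of each of the 5 genes (vertical axis, deposited sign) on S3 arrays 1 to 4 (blue) and ovary arrays 1 and 2 (red); each point is the mean of the gene's spots on 1 array, filled circles with the array median at 0 and open squares after print centring. Hsp68 lies between 0.71 and 1.57 on the S3 arrays and at -1.93 and -0.80 on the ovary arrays before print centring, and Droj2 stays above 1 on both ovary arrays under either centring.

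Hsp68, the only heat-inducible Hsp70 gene of the chaperone list measured on either design, had positive ratios on every S3 array and negative ratios on both ovary arrays. With array medians at 0, its log2 ratios on S3 arrays 1 to 4 were 1.40, 1.57, 0.71 and 0.77 with the deposited sign. These values stood at the 98.9, 99.6, 95.8 and 91.9 percentiles of the 6764 genes, so that arrays 1 and 2 were the higher and arrays 3 and 4 the lower. The gene had 2 neighbouring spots on the S3 design, and all 8 spot values were positive, from 0.56 to 1.66. Each ranked between 19 and 24 from the lowest among the 23 or 24 spots with a value in its own row, so most neighbours printed beside it lay lower.

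The mean of Hsp68 in S3 cells turned on the sign of array 2. As deposited the mean log2 ratio was 1.11 ± 0.44 (SD, n = 4), a 2.16-fold difference between the channels and the second highest mean of the 6764 genes. With array 2 turned, as the labelled dyes ask, the value of that array became -1.57, the signs were split 3 to 1, and the mean dropped to 0.33 ± 1.30 (SD, n = 4). Print centring changed neither picture: the 4 values were 1.41, 1.70, 0.64 and 0.63, with a mean of 1.09 ± 0.54 as deposited and 0.24 ± 1.34 with array 2 turned (SD, n = 4 each). Hsp68 thus kept 1 sign across arrays of opposite dye order as deposited.

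On the ovary arrays Hsp68 was at -1.93 and -0.80 with array medians at 0, a mean of -1.36 ± 0.80 (SD, n = 2) and the ninth lowest of 2377 genes. Its 2 spots lay in row 21 of print block 26, and over the whole design the spots of row 21 had a median of -0.75 on array 1 and -0.46 on array 2. After print centring Hsp68 was at -1.10 on array 1, but at 0.04 on array 2, a mean of -0.53 ± 0.81 (SD, n = 2). With each row of each block set to its own median instead, it was at -1.26 and -0.23, a mean of -0.74 ± 0.73 (SD, n = 2). Array 1 was thus clearly negative under each centring, and array 2 lay near 0 or slightly below it once print position was centred. Within their own row of 24 spots, the 2 Hsp68 spots were the lowest and next lowest on array 1, and ranked 4 and 10 from the lowest on array 2.

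**Figure D2:**
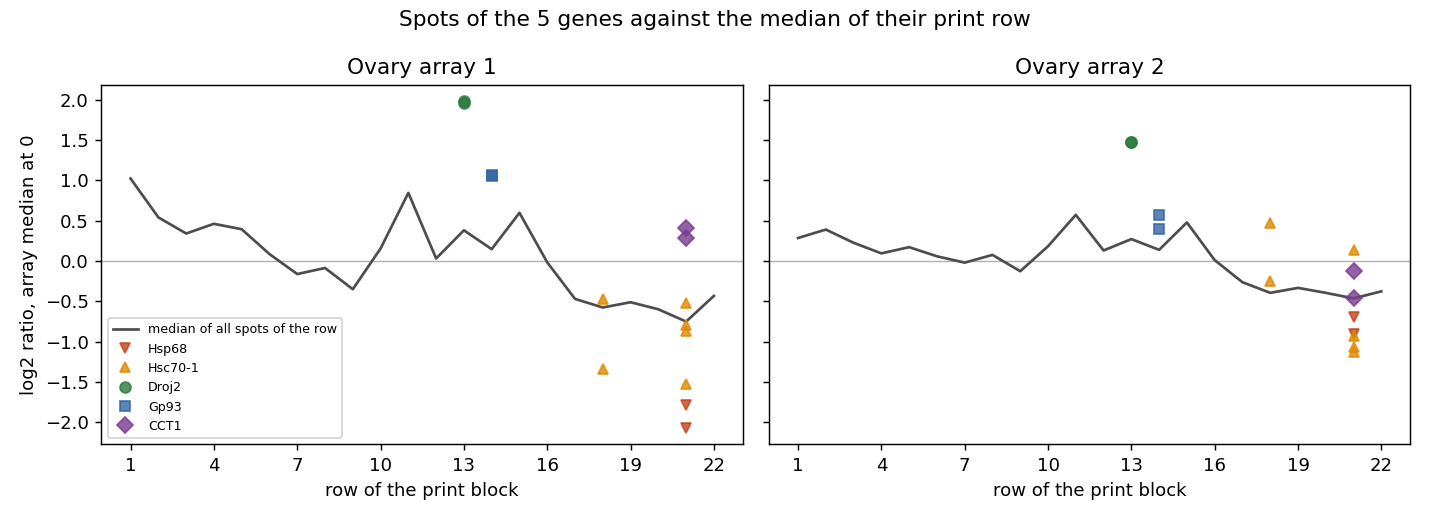
Log2 ratio of every spot of the 5 genes on ovary arrays 1 and 2 (vertical axis, array median at 0) against its row number within a print block (horizontal axis); the line joins the medians of all spots of a row. The medians of rows 17 to 22 lie below 0 on both arrays, and the spots of Hsp68, Hsc70-1 and CCT1 lie in rows 18 and 21, while those of Droj2 and Gp93 lie in rows 13 and 14.

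Hsp68 and CCT1 shared that row, so their difference does not depend on the row or block median. Both genes were chosen by these ovary values, so the difference is given as a description only. An effect of the print column was not examined. CCT1 encodes the alpha subunit of the cytosolic chaperonin, and its 2 ovary spots were printed in row 21 of block 26 too, at columns 9 and 10 against columns 13 and 14 for Hsp68. On array 1 the mean log2 ratio of CCT1 exceeded that of Hsp68 by 2.28, a 4.85-fold difference in ratio, and the differences between single spots ran from 2.08 to 2.48. On array 2 it exceeded it by 0.51, with single-spot differences from 0.24 to 0.78. CCT1 lay above Hsp68 on both arrays and for every pair of spots, by a much smaller margin on array 2. A median of the row or block cancels in this difference, so none of the centrings used changes it.

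Taken alone, CCT1 depended on the centring in ovary. With array medians at 0 it was at 0.35 and -0.29, a mean of 0.03 ± 0.45 (SD, n = 2), and the 2 arrays lay on opposite sides of 0. After print centring it was at 1.18 and 0.55, a mean of 0.87 ± 0.44 (SD, n = 2), and all 4 spot values were positive, from 0.38 to 1.24. In S3 cells CCT1 was at 0.02, 0.68, 1.20 and 0.14 with array medians at 0, high on arrays 2 and 3 and near 0 on arrays 1 and 4. On array 2 its duplicate spots differed by 1.29, more than 92.7% of the 7476 pairs of neighbouring spots with 1 gene, so the value of 0.68 rests on 1 of the 2 spots. The S3 mean was 0.51 ± 0.54 as deposited and 0.17 ± 0.78 with array 2 turned (SD, n = 4 each; limma adjusted p = 0.899 for the latter). After print centring the mean as deposited was 0.52 ± 0.46 (SD, n = 4; limma adjusted p = 0.509).

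Hsc70-1, a constitutive Hsp70 gene of the same family as Hsp68, was negative on both ovary arrays, at -0.92 and -0.46, with a mean of -0.69 ± 0.32 (SD, n = 2). It had 6 ovary spots in 3 neighbouring pairs: rows 21 of blocks 3 and 14, and row 18 of block 31. Of the 12 spot values 10 were negative. After print centring the gene was at -0.21 and -0.14, a mean of -0.17 ± 0.05 (SD, n = 2), with 8 of 12 spot values negative and a range from -0.76 to 0.69. Most of its ovary ratio was thus shared with the other spots of its rows. Its duplicates also disagreed: on array 2 the spots of the pair in block 3 differed by 1.06, more than 98.6% of the 2833 pairs, and those in block 31 by 0.72.

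In S3 cells the values of Hsc70-1 were -0.32, 0.26, 0.14 and -1.64 with array medians at 0. Array 4 stood far below the other 3, at the 0.754 percentile of genes, and without it the mean with array 2 turned was -0.15. The mean over the 4 arrays was -0.52 ± 0.78 with array 2 turned (SD, n = 4; limma adjusted p = 0.660) and -0.39 ± 0.87 as deposited (limma adjusted p = 0.863). After print centring array 4 was still the lowest, at -1.38. With each row of each block set to its own median the 4 values were -0.02, 0.53, 0.82 and -0.70, and the mean with array 2 turned was -0.11. Under all 3 centrings arrays 2 and 3 were positive and array 4 was the lowest, by amounts that depended on the centring.

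Droj2, which encodes a DnaJ-type partner of Hsp70, had the highest ovary ratio of the 5 genes under both centrings. With array medians at 0 it was at 1.97 and 1.47, a mean of 1.72 ± 0.35 (SD, n = 2), a 3.30-fold difference between the channels and the 19th highest of 2377 genes. Its duplicate spots were nearly equal, differing by 0.018 on array 1 and by 0.0022 on array 2. After print centring it was at 1.70 and 1.03, a mean of 1.37 ± 0.48 (SD, n = 2), and its 2 spots were the highest and next highest of the 24 in their own row on both arrays.

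In S3 cells with array medians Droj2 was near 0 on arrays 1, 3 and 4 and higher on array 2, at the 88.7 percentile of genes. Its values were -0.09, 0.60, -0.05 and 0.14 with array medians at 0, and 0.21, 0.32, 0.12 and 0.06 after print centring, which brought all 8 spot values to the positive side, between 0.05 and 0.34. The largest of the first 4, on array 2, fell in print block 31, whose median on that array was 0.28. The mean after print centring was 0.18 ± 0.11 as deposited (SD, n = 4; limma adjusted p = 0.732) and 0.02 ± 0.23 with array 2 turned (limma adjusted p = 0.990). The difference from the ovary values was not tested, because the ovary values chose the gene.

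Gp93, the fly member of the Grp94 chaperones, which fold secreted and membrane proteins, was positive on both ovary arrays, at 1.06 and 0.48, with a mean of 0.77 ± 0.41 (SD, n = 2). After print centring array 1 kept a value of 0.87 and array 2 was at -0.03, a mean of 0.42 ± 0.64 (SD, n = 2). The row of block 16 that holds both spots had a median of 0.81 on array 1 and 0.72 on array 2. Against that row the spots ranked 16 and 17 of 24 on array 1, and 5 and 10 on array 2, and with each row of each block set to its own median the mean was 0.01. The positive ovary ratio of Gp93 was thus of the size of the ratios printed around it.

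The S3 values of Gp93 also moved with print position. With array medians at 0 they were -1.13, 0.56, 0.08 and -0.61, and the median of its block 48 was -0.50, 0.43, -0.05 and 0.09 on the same arrays. After print centring they were -0.63, 0.13, 0.13 and -0.71: arrays 1 and 4 stayed negative, and array 2 lost most of its ratio. The mean with array medians at 0 was -0.56 ± 0.50 with array 2 turned (SD, n = 4; limma adjusted p = 0.650) and -0.28 ± 0.75 as deposited (limma adjusted p = 0.906), and after print centring -0.33 ± 0.40 (limma adjusted p = 0.864) and -0.27 ± 0.46 (limma adjusted p = 0.685). None of the 4 passed the test.

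None of Hsc70-1, Droj2, Gp93 and CCT1, nor any other gene, passed in S3 cells with array 2 turned: the limma fit called 0 of 6764 genes (0%) at a threshold of 0.05 under either centring, against 505 at an unadjusted p under 0.05 with array medians and 331 after print centring. With array 2 as deposited 3 genes (0.0444%) passed with array medians and 0 (0%) after print centring, where 644 had an unadjusted p under 0.05, and no chaperone gene was among them. In ovary 926 of 2377 genes (39.0%) passed with array medians and 780 (32.8%) after print centring, both with the deposited signs. In these ovary fits limma gave all 5 members the same standard error, whatever their SD. It was 0.276 with array medians and 0.235 after print centring. The ovary p-values printed here thus follow the size of the mean and do not measure a gene's own spread between the 2 arrays. With ovary array 2 turned, as a dye swap would ask, 0 of 2377 genes passed under either centring, with 0 at an unadjusted p under 0.05, so every ovary call given here for a chaperone gene holds only with the deposited signs. The 4 and 2 of the 5 members that passed follow from the way they were chosen, and nothing is read from them. Of the limma adjusted p-values behind that choice, which are given as a description only, the one just inside with array medians was that of Hsc70-1 at 0.0360, and the chaperone gene just outside was prtp at 0.0909. After print centring Hsp68 lay just outside at 0.0704.

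The signs in S3 cells and ovary cannot be set against each other directly, since the labels place the treated RNA differently. If 1 dye was the numerator throughout, or 1 channel throughout, then S3 arrays 1, 3 and 4 and ovary array 1 run in opposite directions with respect to treatment in both cases. The positive Hsp68 ratios on those 3 S3 arrays and its negative ratio on ovary array 1 then lie on the same side of the treatment. These Hsp68 values themselves set that side, so only S3 array 2 and ovary array 2 could change the Hsp68 counts. With the numerator fixed by dye, 5 of 6 Hsp68 values lay on that side with array medians and 4 of 6 after print centring. With the numerator fixed by channel, 5 of 6 did with array medians and 6 of 6 after print centring, the last of them, on ovary array 2, at 0.04 in size. Droj2 and Gp93 had 5 of 6 values on the other side by dye with array medians, and 3 of 6 each by channel. After print centring Droj2 was split 3 to 3 by dye and had 5 of 6 values on the Hsp68 side by channel, and Gp93 had 4 of 6 on the other side in both. CCT1 had 4 of 6 values on the Hsp68 side with array medians by either reading, and after print centring 3 of 6 by dye and 5 of 6 by channel. The split of Hsc70-1 was 3 to 3 in all 4 cases. Which reading holds is not known, and no test was made of these counts. The ovary values chose the genes and the S3 values of Hsp68 had been seen, so no shared response is read from them.

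Chaperone genes beyond the 5 were read from a list of 105, of which 104 matched a current gene. It was written with earlier results of these data known. On the ovary design 31 further genes of the list were measured, and limma called 5 positive and 5 negative with array medians, with 21 not passed. That share does not exceed the 39.0% of all genes, and the median log2 ratio of the 31 was -0.33 against -0.14 for all genes. After print centring 6 passed on the positive and 3 on the negative side, 22 did not, and the median was 0.00 against -0.02. The share again does not exceed the background of 32.8%. Of the whole list of 36, members included, 14 passed with array medians, 11 after print centring and 7 under both with the same sign: CCT2, ERp60, Pfdn4, CG7409, p23 and mgr, beside the member Droj2. Over all genes 504 of 2377 were called under both, so the 7 of 36 do not stand above the rest of the design.

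Among cytosolic chaperonin genes, whose products form 1 ring complex with that of CCT1, the ovary means lay on both sides of 0 with array medians. CCT2 was at 1.39 and 1.07 with array medians, on average 1.23 ± 0.22 (SD, n = 2; limma adjusted p = 1.38e-04), and at 0.99 ± 0.01 after print centring (2.74e-04). CCT4 was at -1.03 and -0.70, on average -0.86 ± 0.23 (SD, n = 2; limma adjusted p = 0.00838), but at -0.03 after print centring (0.943). CCT5 and CCT8 did not pass under either centring, at means of 0.19 and 0.16 and then 0.30 and 0.31. With print position centred, the means of CCT2, CCT5 and CCT8 were positive and that of CCT4 was near 0, where 48.5% of all genes had a positive mean. Of these 4 genes only CCT2 passed, against the background of 32.8%.

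Both measured genes of prefoldin, which hands unfolded actin and tubulin to the chaperonin, passed on the positive side. Of all ovary genes 39.0% passed with array medians and 32.8% after print centring, so little can be read from a count of 2 genes. Pfdn4 was higher on array 1 than on array 2, where it was at 0.69, and averaged 0.84 ± 0.22 (SD, n = 2; limma adjusted p = 0.0102), and at 1.11 ± 0.06 after print centring (4.18e-05). For mgr, the subunit 3 gene, the values were 1.06 and 0.91, on average 0.99 ± 0.11 (SD, n = 2; limma adjusted p = 0.00244), and then 0.97 ± 0.57 (3.41e-04). In S3 cells 4 prefoldin genes were measured and all had positive means under both centrings with array 2 turned, from 0.19 to 0.53 with array medians, although with array 2 as deposited 3 of 4 did with array medians; none passed.

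Of the endoplasmic reticulum genes that work beside Gp93, the disulfide isomerase gene ERp60 was at 1.29 and 0.41 with array medians, on average 0.85 ± 0.62 (SD, n = 2; limma adjusted p = 0.00969), and at 1.20 ± 0.74 after print centring (7.72e-06). Pdi passed only after print centring, at 0.76 ± 0.42 (SD, n = 2; limma adjusted p = 0.00579). The calnexin gene Cnx99A passed on the negative side only with array medians, at -0.77 ± 0.23 (SD, n = 2; limma adjusted p = 0.0191). On the negative side after print centring were prtp, at -0.57 ± 0.32 (0.0480), and Sil1, an exchange factor gene for the reticulum's Hsp70, at -0.65 ± 0.10 (SD, n = 2 each; limma adjusted p = 0.0218). The genes of this compartment thus lay on both sides.

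Genes of further classes differed in how far they held under both centrings. The small heat shock protein gene CG7409 was at 0.84 and 0.91 with array medians, on average 0.87 ± 0.05 (SD, n = 2; limma adjusted p = 0.00770), and at 1.35 ± 0.49 after print centring (3.44e-07). The Hsp90 co-chaperone gene p23 was at -0.73 ± 0.13 (SD, n = 2; limma adjusted p = 0.0264) and then at -0.63 ± 0.11 (0.0267). The J-domain gene CG7130, at -0.87 ± 0.08 (SD, n = 2; limma adjusted p = 0.00767), and the mitochondrial chaperonin gene CG9920, at -0.77 ± 0.01 (0.0196), passed with array medians and were at -0.20 and 0.01 after print centring (0.571 and 0.980). DnaJ-1, the main heat-inducible J-domain gene, had ovary means of -0.30 with array medians and -0.39 after print centring and did not pass under either (limma adjusted p of 0.367 and 0.210).

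**Figure D3:**
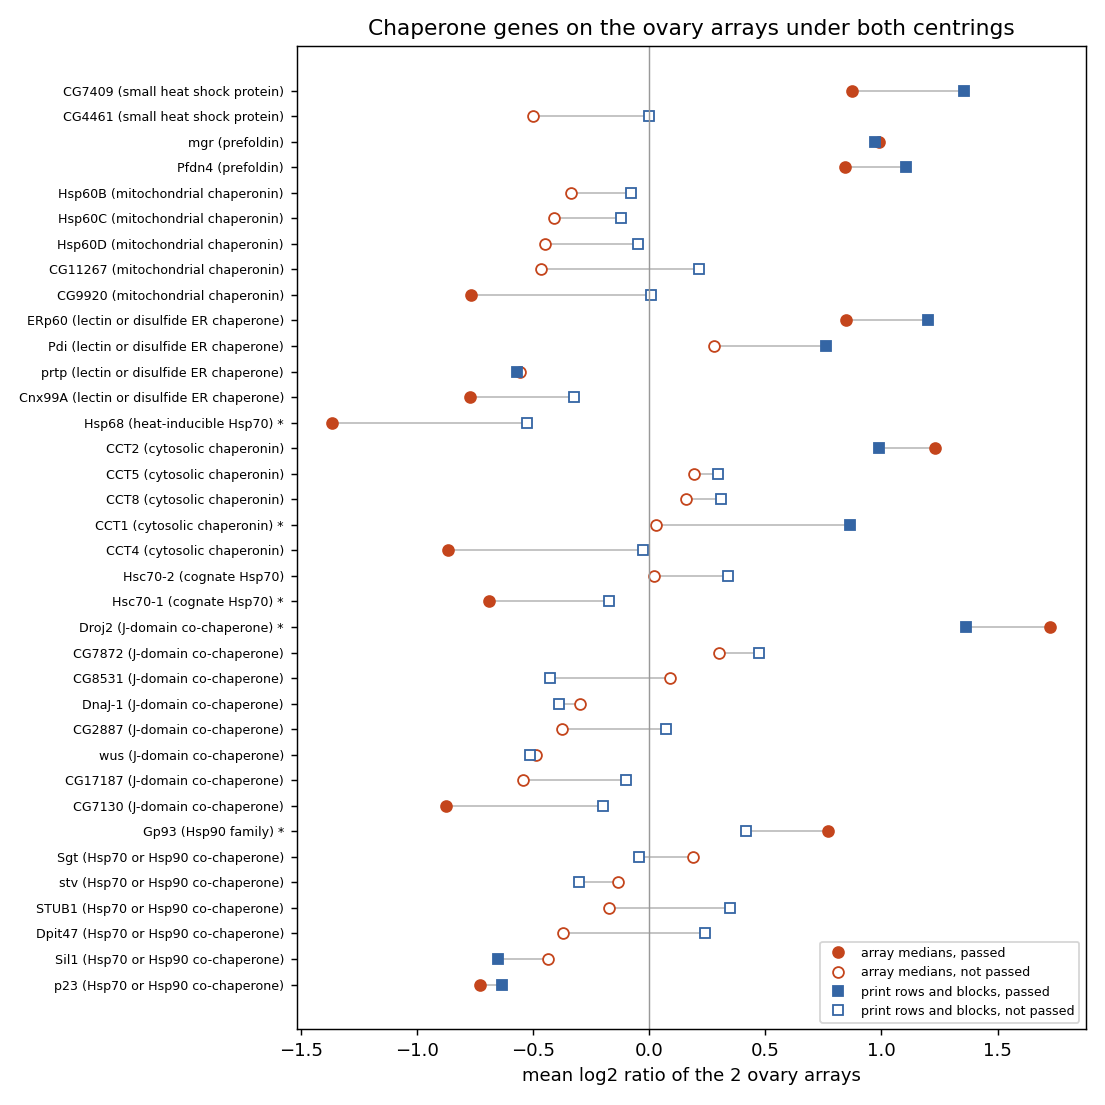
Mean log2 ratio over the 2 ovary arrays (horizontal axis) of the 36 chaperone genes measured there, with array medians at 0 (red circles) and after print centring (blue squares), filled where the limma adjusted p was under 0.05; asterisks mark the 5 members, whose calls follow from their choice. A line joins both values of a gene. Hsp68 moved from -1.36 to -0.53 and CCT1 from 0.03 to 0.87, and CCT4 and CG9920 came to lie near 0.

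In S3 cells 64 further genes of the list were measured and limma called 0 of them under either centring with array 2 turned, with 6 and 3 at an unadjusted p under 0.05. Their medians were -0.02 with array medians and 0.01 after print centring, against -0.02 and -0.01 for all genes. The largest means with 1 sign on every array were those of the J-domain gene jdp at -0.82 ± 0.59, CCT4 at -0.67 ± 0.46, CCT2 at 0.59 ± 0.36 and Pfdn6 at 0.53 ± 0.41 (SD, n = 4 each; limma adjusted p = 0.650 each). After print centring they were those of CCT4 at -0.43 ± 0.23, CCT7 at 0.42 ± 0.27, CG11035 at 0.41 ± 0.44 and Cnx14D at -0.37 ± 0.21 (SD, n = 4 each; limma adjusted p = 0.864 each). None passed. The gene of the heat shock factor itself, Hsf, had means of 0.21 with array medians and 0.04 after print centring with array 2 turned, and did not pass.

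The genes most like Hsp68 over the 6 arrays, by the root mean square difference of print-centred log2 ratios with the deposited sign, were CG7565 at 0.62, daw at 0.69 and RnpS1 at 0.70, where the median over 1814 other genes was 1.16. None of them reached the Hsp68 value of 1.70 on S3 array 2, the nearest being daw at 0.65. Droj2 had closer neighbours: Atxn7 at 0.11, Tbcd at 0.18 and Mink at 0.19, against a median of 0.93. Atxn7 was at 1.77 and 1.06 on the ovary arrays, where Droj2 was at 1.70 and 1.03, and at 0.17 to 0.49 on the S3 arrays.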

How the data were processed

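The authors deposited 1 log ratio of the 2 channels per spot and array, taken here as log2. The base, the numerator, the background correction and the normalisation are not given in the sources used here, and array medians as deposited ran from -0.02 to 0.18, so scale and direction stay unknown. Array medians, S3 arrays 1 to 4, were 0.08, -0.02, 0.06 and 0.18, and ovary arrays 1 and 2 had 0.11 and 0.06. Signal over background was not analysed here, and the number of arrays limits the precision.

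Spots with 1 gene in the platform annotation (15116 of 27648 on the S3 design, 5666 of 16896 on the ovary design; 102 and 152 had several genes, 12430 and 11078 none) were named by Entrez number with Release 6 symbols. All 5 members matched. Spots of a gene were averaged per array. Print layout was inferred from how the values recur along the table: 48 blocks of 576 spots (S3) and 32 of 528 (ovary), in rows of 24. On the ovary design each row number was centred over all blocks first, then blocks. S3 array 2 was turned for its dye order. Genes with a value on every array were tested against 0, two-sided, with limma 3.58.1 in R 4.3.3 and Benjamini-Hochberg adjustment over all genes, S3 and ovary apart, and the fit was tested on simulated data. Tables were handled in Python 3.11.15 with pandas 2.3.3.

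The members and lists were chosen with earlier results of these data known. Of the other list genes, those named passed. Where none did, the 4 with the largest mean of 1 sign on every array, S3 array 2 turned, are named. CCT5, CCT8, DnaJ-1 and Hsf were named after their values were seen. For likeness the 3 nearest genes are named. Alternatives were the other sign of array 2, no centring, equal scale, medians of spots, a threshold of 0.10 and each array left out; centring each row of each block on its own median, and blocks before rows, were added after seeing the data.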

Additional observations from a re-analysis of the deposited data

Results flagged for a closer look

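Hsp68 differed in sign between the groups: with the deposited sign and array medians at 0, all 4 S3 arrays were positive and both ovary arrays negative, and the means lay 2.47 apart on the log2 scale. The difference was not tested, because the ovary values chose the gene. The full split of signs was not seen with S3 array 2 turned, nor after print centring, where ovary array 2 was at 0.04. It was seen with each row of each block on its own median. There the S3 arrays ran from 0.45 to 1.63 and the ovary arrays were at -1.26 and -0.23. As the labels place the treated RNA oppositely on S3 array 1 and ovary array 1, opposite signs do not mean opposite responses.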

How the results depend on the processing

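The sign of array 2 mattered most. In ovary it brought the 926 genes called with array medians, and the 780 after print centring, to 0 each, and the 14 and 11 chaperone genes among them to 0 each, with 0 at an unadjusted p under 0.05; in S3 cells it brought 0 called genes to 3. Leaving out 1 S3 array gave 0 to 1 genes, the 1 without replicate 2, and 0 chaperone genes. Centring each row of each block on its own median left 615 ovary genes. The other counts stayed within 1.5 times. No ovary mean of a member that had passed with array medians changed sign in the alternatives run. These values chose the members, so nothing is read from that. An ovary array was left out only with array medians. After print centring, ovary array 2 alone was at 0.04 for Hsp68 and at -0.03 for Gp93, opposite in sign to their means. Over all alternatives Hsp68 ran from -1.93 to -0.53, Hsc70-1 from -0.92 to -0.03, Droj2 from 0.25 to 1.97 and Gp93 from 0.01 to 1.06. The mean of CCT1 in ovary, which had passed after print centring but not with array medians, did change sign, from -0.29 to 0.87. In S3 cells Hsp68 ran from -0.03, without replicate 1, to 1.11, CCT1 from -0.18, without replicate 3, to 0.52, and Droj2 from -0.24 to 0.18. Hsc70-1 (-0.74 to -0.11) and Gp93 (-0.77 to -0.27) were negative in each alternative that was run. Leaving out an S3 array, and centring each row on its own median, were done only with array 2 turned. The signs in those settings with array 2 as deposited were not examined. Hsp68 in ovary was at -0.58 with blocks centred before rows and at -0.74 with each row on its own median, against -0.53 with rows centred before blocks. With 2 ovary arrays, leaving out either gives a value and no test. No paired analysis was possible because S3 and ovary arrays, which share the numbers 1 and 2, are of different designs and were tested apart against 0, so no test compared them.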

Other observations

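On the ovary arrays with print position centred and array 2 turned, 1 channel is taken as the numerator throughout. In that reading 25 of the 31 list genes other than the members had a positive mean, against 51.3% of all 2377 genes. Their median log2 ratio was 0.12 against 0.01. A positive mean there says only that a gene was higher on array 1 than on array 2, as deposited. In that reading limma called 0 of 2377 genes, with 0 at an unadjusted p under 0.05. With array medians and the same sign 16 of 31 were positive, against 48.5% of all genes. The count was taken from 1 of several settings, for a list written with earlier results known, so nothing is read from it.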
